A study of Mus musculus with 6 samples.

Results

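Insulin and the insulin-like growth factors (IGFs) act through a small family of genes, and 10 of them were followed here in mouse pancreatic islets: the receptor genes Insr, Igf1r and Igf2r, the adaptor genes Irs1 and Irs2, and the binding protein genes Igfbp2, Igfbp3, Igfbp4, Igfbp5 and Igfbp7. They were taken by symbol from count files of 23284 genes, and all 10 symbols were found. The islets came from 12-week-old mice. In the knockout group both copies of Neurod1 were floxed and a Rip-Cre transgene was present, in which the rat insulin promoter drives Cre recombinase in beta cells. The control group had the same floxed copies and no Cre, so Cre itself and the loss of Neurod1 cannot be told apart. The strain is written as C56BL/J in the labels of both groups. There were 3 libraries of bulk RNA per group, numbered 4, 5 and 6 in knockout islets and 7, 10 and 16 in the control, and the labels do not say whether each came from its own animal, so the p-values below speak only of differences among these libraries.

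Insulin binds the receptor encoded by Insr and the IGFs bind mainly that of Igf1r. Both are tyrosine kinases that phosphorylate the docking proteins Irs1 and Irs2, which recruit PI3-kinase and so lead to Akt, the Foxo factors and mTOR. Igf2r carries no kinase and takes Igf2 and mannose 6-phosphate tagged enzymes to lysosomes. The binding proteins hold IGFs outside the cell and proteases release them. In mice, signalling through Irs2 is known to sustain beta cell growth and survival.

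Total counts per library were 12206393 to 16473159 in knockout islets and 14424767 to 20412435 in the control. Neurod1, the transcription factor deleted in the knockout, had 28.4, 29.8 and 31.3 CPM (counts per 1e+06 counts, scaled by TMM factors) in knockout libraries 4, 5 and 6, against 198, 177 and 141 CPM in control libraries 7, 10 and 16 (log2 fold change -2.53, SE 0.13, adjusted p = 1.74e-05). Of 10 beta cell markers 3 were higher in the knockout (Pdx1 at a log2 difference of 0.93, Nkx6-1 at 0.47 and Slc2a2 at 0.35), 3 were lower (Ins1 at -3.50, G6pc2 at -1.04 and Slc30a8 at -0.53) and 4, Ins2 among them, did not pass, with sums of 132000 to 149000 CPM in knockout islets and 175000 to 193000 CPM in the control. Of 15 endothelial markers 10 were lower in the knockout and none was higher, and their summed level was 729 to 856 CPM in knockout islets and 1140 to 1150 CPM in the control. Of 16 stellate cell, fibroblast and pericyte markers 4 were lower, with sums of 856 to 1300 CPM in knockout islets and 1240 to 1560 CPM in the control. Of 25 acinar markers 2 were lower, with sums of 5270 to 15600 CPM in knockout islets and 14800 to 53800 CPM in the control. Few passed, yet their median log2 difference was -1.83. The sums overlapped only because knockout library 5 (15600 CPM) lay above control library 16 (14800 CPM). The acinar level, used below as a covariate, therefore nearly separates the genotypes. Each marker in these 4 lists had counts. In bulk islets fewer cells of a type and less RNA per cell cannot be told apart.

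The comparison asked how transcripts of the insulin and IGF system differ when beta cells lack Neurod1. Igfbp4 and Igf1r rose, Igfbp3, Igfbp7 and Irs1 fell, and Insr, Igf2r, Irs2 and Igfbp5 did not pass the test (edgeR's quasi-likelihood test, adjusted p under 0.05 over all genes tested). Igfbp2 had too few counts to be tested. Thus 2 of the 9 members tested were higher and 3 were lower, where 11.8% of all 14770 genes tested were higher and 12.6% were lower (24.4% in either direction). For 6 of the 9 the CPM values of the groups did not overlap, as was so for 42% of all genes tested. The median log2 fold change of the 9 members was -0.22, and that of all genes tested was -0.01.

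**Figure D1:**
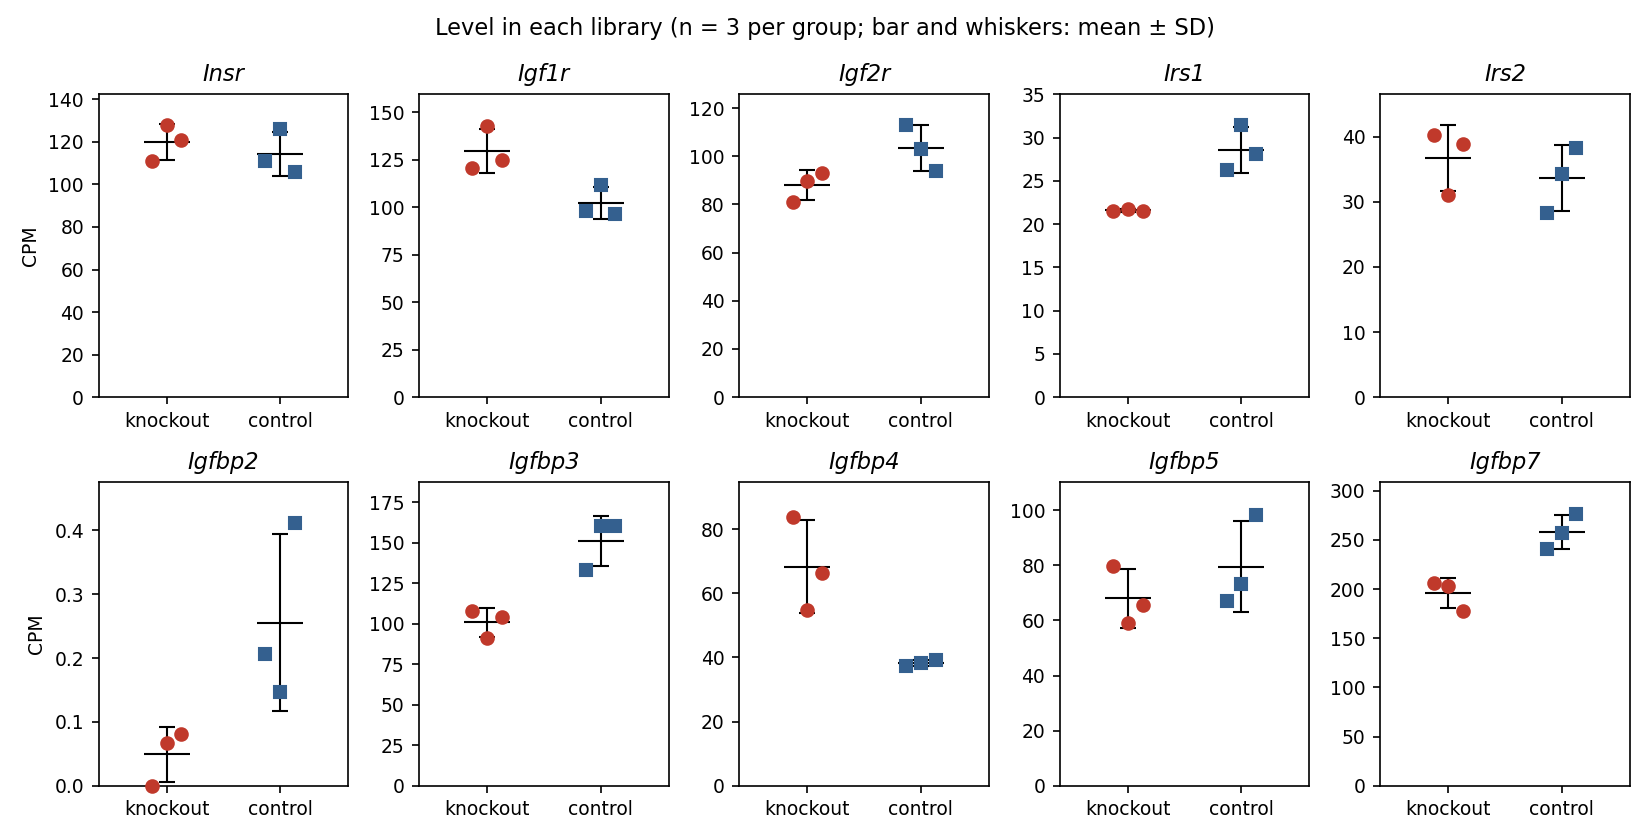
CPM of each of the 10 genes (vertical axis, starting at 0) in the 3 knockout and the 3 control libraries, with points for libraries and a bar with whiskers for mean ± SD. Igfbp4 and Igf1r lie higher in all 3 knockout libraries, Igfbp3, Igfbp7, Irs1 and Igf2r lie lower, and the groups overlap for Insr, Irs2 and Igfbp5.

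The promoters of the members with the largest rise and the largest fall are printed here because they were the members whose promoter window held the E-box CATCTG, a sequence that Neurod1 and related factors are known to bind. RefSeq promoter windows on GRCm38.p6, with 250 bases before and 50 after the gene start, were found for 9 of the 10 genes (10 windows, since Igfbp2 has 2 starts). CATCTG was searched on both strands, where it reads CAGATG on the other strand, and was present in 2 of the 10 windows and in 17.2% of 32841 promoter windows of that length. The E-box CAGCTG and the Foxo element GTAAACA were in 0 of the 10, against 16.3% and 3.65% of all windows. G and C made up 56.3% to 76% of the bases in the 10 windows, against a median of 52.7% over all windows. The shares therefore compare windows of unlike base content. In the lines below, up to base 20 after the start, capitals mark the match, whose first base is 174 bases before the start in Igfbp4 and the last base before it in Igfbp3.
Igfbp4 (chr11:99040994-99041263, plus strand): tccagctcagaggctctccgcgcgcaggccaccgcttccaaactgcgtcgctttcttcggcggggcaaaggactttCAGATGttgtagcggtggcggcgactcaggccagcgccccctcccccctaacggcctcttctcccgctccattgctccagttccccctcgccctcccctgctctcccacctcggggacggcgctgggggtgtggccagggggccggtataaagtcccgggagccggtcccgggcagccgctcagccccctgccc
Igfbp3 (chr11:7213904-7214173, minus strand): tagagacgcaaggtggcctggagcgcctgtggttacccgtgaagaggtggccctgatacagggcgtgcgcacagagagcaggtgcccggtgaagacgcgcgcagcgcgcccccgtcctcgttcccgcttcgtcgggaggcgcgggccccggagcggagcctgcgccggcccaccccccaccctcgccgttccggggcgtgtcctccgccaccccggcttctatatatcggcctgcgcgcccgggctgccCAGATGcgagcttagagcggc
The genes with these matches moved in opposite directions. Whether any factor bound there was not measured.

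Among the receptors, Igf1r, which encodes the IGF receptor kinase, rose 1.27-fold. It had 121, 143 and 125 CPM in knockout libraries 4, 5 and 6, against 98.2, 112 and 96.7 CPM in control libraries 7, 10 and 16. Every knockout library lay above every control library, by a small margin between knockout 4 and control 10. The mean was 130 ± 11.7 CPM in knockout islets and 102 ± 8.48 CPM in control islets (SD, n = 3 each, log2 difference 0.34, SE 0.09, adjusted p = 0.0235). The call was lost without knockout library 5 (0.26, adjusted p = 0.0721), control library 7 (0.32, adjusted p = 0.0857) or control library 16 (0.30, adjusted p = 0.0776).

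Insr, the insulin receptor gene, had 111, 128 and 121 CPM in knockout libraries 4, 5 and 6, against 111, 126 and 106 CPM in control libraries 7, 10 and 16. The groups covered almost the same range. The log2 difference was 0.07 (95% interval -0.13 to 0.27, adjusted p = 0.596), so a change beyond 1.2-fold in the upward direction lies outside the interval. Insr counts divided by Igf1r counts, a ratio that library scaling does not touch, were 0.917, 0.894 and 0.971 in knockout libraries 4, 5 and 6, against 1.13, 1.12 and 1.09 in control libraries 7, 10 and 16. The ratio was lower in all 3 knockout libraries.

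Igf2r had 81.1, 89.9 and 93 CPM in knockout libraries 4, 5 and 6, against 113, 103 and 94 CPM in control libraries 7, 10 and 16. The groups touched without overlapping, with knockout 6 and control 16 nearly equal, and the log2 difference of -0.23 (SE 0.09, 95% interval -0.42 to -0.04) did not pass (adjusted p = 0.0829). In mice Igf2r is imprinted, and the antisense RNA Airn starts inside it. Airn had 4.54, 4.49 and 3.37 CPM in knockout libraries 4, 5 and 6, against 6.35, 5.39 and 5.42 CPM in control libraries 7, 10 and 16, and also did not pass (-0.46, adjusted p = 0.113). Airn and Igf2r share no exon in the GENCODE vM21 annotation.

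The adaptors differed. Irs1 had 21.5, 21.8 and 21.5 CPM in knockout libraries 4, 5 and 6, against 26.2, 31.4 and 28.1 CPM in control libraries 7, 10 and 16. The knockout libraries were almost equal to each other and below every control library. Irs1 fell to 21.6 ± 0.154 CPM in knockout islets, against 28.6 ± 2.61 CPM in control islets (SD, n = 3 each, log2 difference -0.40, SE 0.09, adjusted p = 0.0147). Without knockout library 4 (-0.38, adjusted p = 0.0517) or control library 10 (-0.33, adjusted p = 0.0569) it missed the threshold, and with acinar markers as a covariate it was -0.39 (adjusted p = 0.124). In GENCODE vM21, 2822 exonic bases of Irs1 are shared with Gm9747 on the opposite strand, which has no row in the count files. Reads of the pair cannot be told apart unless strand was used in counting, which is not known here.

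Irs2 had 40.3, 31 and 38.8 CPM in knockout libraries 4, 5 and 6, against 28.3, 34.3 and 38.3 CPM in control libraries 7, 10 and 16. The groups overlapped, and the log2 difference was 0.13 (SE 0.14, 95% interval -0.18 to 0.44, adjusted p = 0.525). Irs2 counts divided by Irs1 counts were 1.88, 1.42 and 1.8 in knockout libraries 4, 5 and 6, against 1.08, 1.09 and 1.36 in control libraries 7, 10 and 16. All 3 knockout ratios were above all 3 control ratios, with knockout 5 and control 16 close together. Irs2 shares 162 exonic bases with 9530052E02Rik on the opposite strand, which had 4, 7 and 14 counts in knockout libraries 4, 5 and 6, against 8, 10 and 7 counts in control libraries 7, 10 and 16.

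Of the binding proteins, Igfbp4 rose 1.79-fold. It had 83.8, 54.9 and 66.4 CPM in knockout libraries 4, 5 and 6, against 37.4, 38.4 and 39.1 CPM in control libraries 7, 10 and 16. The control libraries were close to each other, the knockout libraries were spread and all lay higher. The mean was 68.4 ± 14.5 CPM in knockout islets and 38.3 ± 0.861 CPM in control islets (SD, n = 3 each, log2 difference 0.84, SE 0.14, adjusted p = 0.00483). The call held without any 1 library (0.68 to 0.97, highest adjusted p = 0.0239), and with acinar markers as a covariate the difference was 0.52 (adjusted p = 0.111).

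Igfbp3, whose protein is the main carrier of IGFs in serum, fell. It had 108, 90.9 and 104 CPM in knockout libraries 4, 5 and 6, against 133, 160 and 160 CPM in control libraries 7, 10 and 16. All knockout libraries were below all control libraries. The mean was 101 ± 8.83 CPM in knockout islets and 151 ± 15.7 CPM in control islets (SD, n = 3 each, log2 difference -0.58, SE 0.10, adjusted p = 0.00355), and the call held without any 1 library (highest adjusted p = 0.0172). Igfbp4 counts divided by Igfbp3 counts were 0.778, 0.605 and 0.64 in knockout libraries 4, 5 and 6, against 0.282, 0.24 and 0.245 in control libraries 7, 10 and 16. Since Igfbp4 was higher and Igfbp3 lower in all 3 knockout libraries, this ratio had to separate the groups.

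Igfbp7, a relative that binds IGFs weakly and is known from blood vessels, had 206, 203 and 178 CPM in knockout libraries 4, 5 and 6, against 241, 257 and 276 CPM in control libraries 7, 10 and 16. All knockout libraries were lower. It fell to 196 ± 15.2 CPM in knockout islets, against 258 ± 17.5 CPM in control islets (SD, n = 3 each, log2 difference -0.40, SE 0.09, adjusted p = 0.011), and the call held without any 1 library (highest adjusted p = 0.038). In GENCODE vM21 an end of 85 exonic bases is shared with Polr2b on the opposite strand, which had 94.1, 111 and 95.2 CPM in knockout libraries 4, 5 and 6, against 92.9, 90.5 and 83.4 CPM in control libraries 7, 10 and 16, so it did not fall beside Igfbp7. The sources used here do not give how reads on that stretch were counted.

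Igfbp5, which also binds extracellular matrix, had 79.8, 58.9 and 65.6 CPM in knockout libraries 4, 5 and 6, against 67.1, 73.4 and 98.2 CPM in control libraries 7, 10 and 16. The groups overlapped, and the log2 difference was -0.22 (SE 0.17, 95% interval -0.62 to 0.18, adjusted p = 0.391). With acinar markers as a covariate it was lower and passed (-0.71, SE 0.09, adjusted p = 0.00335). That was the only 1 of 16 alternative fits in which Igfbp5 passed. Its sign turned with endothelial markers (0.38) and with stellate cell, fibroblast and pericyte markers (0.03) as a covariate. Igfbp2 was at the limit of detection, with 0, 1 and 1 counts in knockout libraries 4, 5 and 6, against 4, 3 and 6 counts in control libraries 7, 10 and 16. Tested without a filter on low counts it did not pass (adjusted p = 0.167).

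The markers of vessels moved in the same direction as Igfbp3, Igfbp7 and Irs1, but not they alone. Of 8 alpha cell markers 2 were lower and 0 higher (median -0.37). Their sums were 26800 to 35500 CPM in knockout islets and 37900 to 51000 CPM in the control. The summed duct markers were higher in every knockout library. Sums of the delta, the PP and epsilon, the leukocyte, and the Schwann cell and neuron markers overlapped between the groups. Igfbp7 came to 24.7%, 23.7% and 24.4% of the summed endothelial marker level in knockout libraries 4, 5 and 6, against 21.1%, 22.6% and 24% in control libraries 7, 10 and 16. Relative to that level it was therefore no lower in the knockout, and the groups overlapped. Igfbp3 came to 13%, 10.6% and 14.2% in knockout libraries 4, 5 and 6, against 11.6%, 14% and 13.9% in control libraries 7, 10 and 16, and Irs1 to 2.54% to 2.95% in knockout islets and 2.3% to 2.76% in the control, so both overlapped too. Igfbp4 stood at 10.1%, 6.42% and 9.11% in knockout libraries 4, 5 and 6, against 3.27%, 3.37% and 3.41% in control libraries 7, 10 and 16. Igf1r was likewise at 14.5% to 17.1% in knockout islets and 8.43% to 9.86% in the control. Both genes were higher and the endothelial sum lower in every knockout library, so these ratios had to separate the groups. Nor does the overlap of Igfbp7, Igfbp3 and Irs1 tell which cells made them. A gene of any cell type that falls about as much as the sum will tend to overlap. The median log2 difference of the endothelial markers was -0.49, and the beta cell marker Slc30a8 was at -0.53. Against the summed stellate cell, fibroblast and pericyte level, Igfbp7 was at 15.9% to 20.8% in knockout islets and 17.3% to 19.4% in the control. There the groups overlapped for Igfbp7, and also for Igfbp3 (8.3% to 12.1%, control 10.3% to 10.8%) and Irs1 (1.66% to 2.52%, control 1.8% to 2.12%). For Igfbp4 and Igf1r they stayed apart.

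With the mean endothelial marker level as a covariate, which itself separates the genotypes, Igfbp7 was at 0.06 (adjusted p = 0.912), Igfbp3 at -0.40 (adjusted p = 0.545) and Irs1 at -0.27 (adjusted p = 0.684). In the same fit Igfbp4 was at 1.10 (adjusted p = 0.285) and Igf1r at 0.44 (adjusted p = 0.472), so no member passed by edgeR, and 2 of the 9 had an unadjusted p under 0.05. With the stellate cell, fibroblast and pericyte level as a covariate, Igfbp3 was at -0.46 (adjusted p = 0.0615), Igfbp7 at -0.29 (adjusted p = 0.158), Irs1 at -0.37 (adjusted p = 0.132) and Igf1r at 0.29 (adjusted p = 0.187), and Igfbp4 alone passed. Which cells made these transcripts was not tested.

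**Figure D2:**
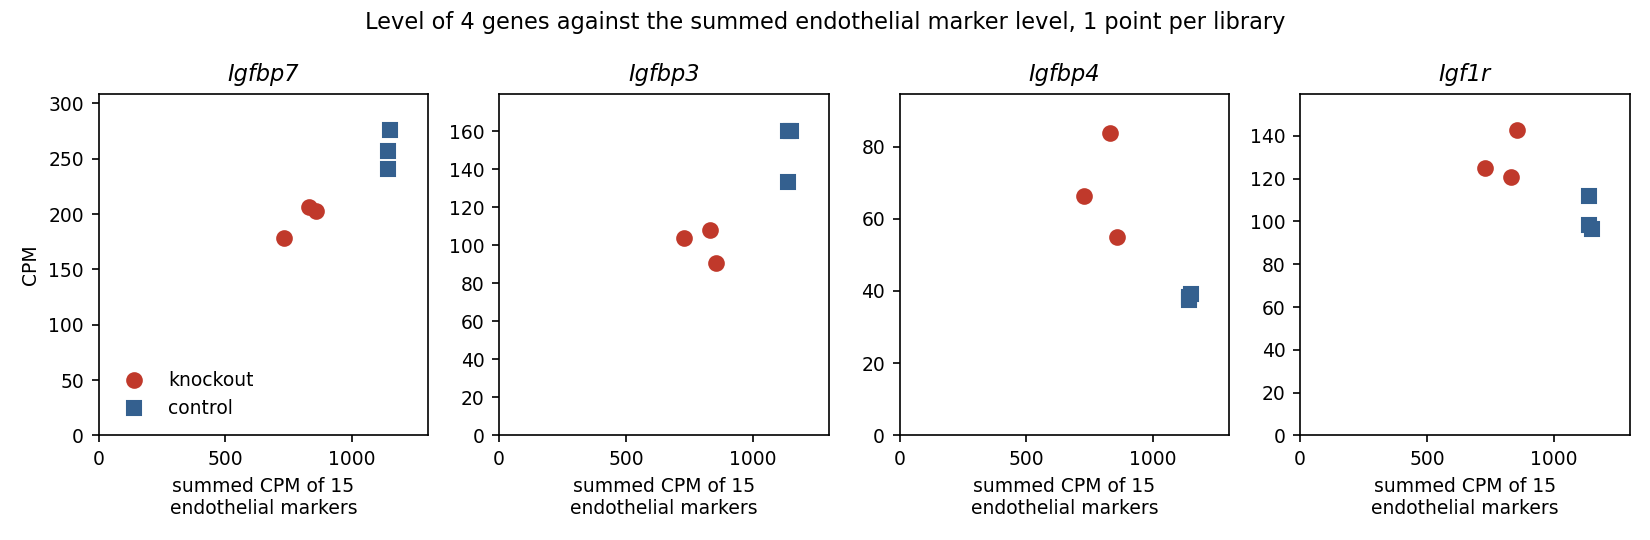
CPM of Igfbp7, Igfbp3, Igfbp4 and Igf1r (vertical axes, starting at 0) against the summed CPM of 15 endothelial markers (horizontal axis), 1 point per library. The knockout libraries have endothelial sums of 729 to 856 CPM and the control libraries of 1140 to 1150 CPM. Igfbp7 and Igfbp3 are lower in every knockout library than in any control library, and Igfbp4 and Igf1r are higher. Within the knockout, library 5 has the highest sum and the lowest Igfbp3, while library 6 has the lowest sum and the lowest Igfbp7. With 3 libraries per group, a relation within a group cannot be judged.

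Levels of different genes were set side by side per kilobase of exon, with lengths from GENCODE vM21, which is not the annotation behind the counts, so the order is approximate. Igfbp7 was the most abundant member, at 162 ± 12.7 CPM per kilobase in knockout islets and 213 ± 14.5 in the control, and Igfbp3 followed at 32.3 ± 2.86 in knockout islets and 48.2 ± 4.98 in control islets (SD, n = 3 each). Igfbp4 was the third in the knockout, at 15.5 ± 3.29 CPM per kilobase, and stood at 8.67 ± 0.193 in the control, where Igfbp5 (13.2 ± 2.74) and Igf2r (11.1 ± 1.02) were above it. In knockout libraries the ranges of Igfbp4 and Igfbp5 overlapped, as did those of Igfbp5 and Igf2r, Igf2r and Insr, and Insr and Igf1r. In control libraries the neighbours that overlapped were Igfbp5 and Igf2r, Igfbp4 and Insr, and Igf1r and Irs2. Irs2, at 5.8 ± 0.79 CPM per kilobase in knockout islets and 5.32 ± 0.796 in the control, was above Irs1, at 2.36 ± 0.0189 in knockout islets and 3.12 ± 0.288 in the control, in every library. Igfbp2 was the lowest.

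Of the 4 ligand genes 2 fell, 2 did not pass and none rose. Igf1 had 4.85, 4.22 and 3.94 CPM in knockout libraries 4, 5 and 6, against 6.25, 7.11 and 9.61 CPM in control libraries 7, 10 and 16, and fell (log2 fold change -0.81, SE 0.21, adjusted p = 0.0212). Leaving out knockout library 5 or 6, or control library 10 or 16, ended the call (-0.86 to -0.62, adjusted p from 0.052 to 0.0676). Igf2 averaged 8.09 ± 2.05 CPM in knockout islets and 9.82 ± 0.629 CPM in control islets (SD, n = 3 each) and did not pass (-0.28, adjusted p = 0.306). Of the insulin genes Ins1 fell (-3.50, SE 0.25) and Ins2 differed by 0.03 (SE 0.10, adjusted p = 0.873), with the limit that reads shared by these near copies could be split either way.

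Among the genes that act beside the receptors and binding proteins, Pappa and Insrr had the largest differences of those tested. Pappa, a metalloprotease that is known to cleave Igfbp4, had 33.3, 19.4 and 28.8 CPM in knockout libraries 4, 5 and 6, against 1.34, 1.47 and 2.26 CPM in control libraries 7, 10 and 16. It rose 16.3-fold with a wide gap between the groups (log2 fold change 4.03, SE 0.27, adjusted p = 7.6e-05), and with acinar markers as a covariate its log2 difference was 3.27 (adjusted p = 4.09e-04). Stc2, a secreted protein known to inhibit Pappa, averaged 2.07 ± 0.76 CPM in knockout islets and 4.94 ± 0.781 CPM in control islets (SD, n = 3 each) and fell (-1.25, SE 0.28, adjusted p = 0.0136), but the call ended without control library 10 (-1.11, adjusted p = 0.0598) and with acinar markers as a covariate (-0.89, adjusted p = 0.193). The related protease Pappa2 averaged 378 ± 39.4 CPM in knockout islets and 419 ± 16.9 CPM in control islets (SD, n = 3 each) and did not pass (-0.15, adjusted p = 0.274). Pappa2 was named after its values were seen.

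Insrr, the insulin receptor-related receptor, which responds to alkaline medium and not to insulin, had 206, 198 and 239 CPM in knockout libraries 4, 5 and 6, against 853, 732 and 690 CPM in control libraries 7, 10 and 16. It fell to 0.283 of the control level in the fit (log2 fold change -1.82, SE 0.11, adjusted p = 2.94e-05), the only receptor kinase of this family with a difference of that size. Ide, a protease that degrades insulin, rose (0.43, SE 0.08, adjusted p = 0.00606), and with acinar markers as a covariate its adjusted p was 0.0745. In this list of 12 genes around the receptors and binding proteins, 10 were tested, of which 2 were higher, 2 lower and 6 did not pass, with a median of -0.06. That count, like those of the 3 lists that follow, stands beside 11.8% of all genes tested that were higher and 12.6% that were lower.

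Of 15 other adaptors and receptor brakes that were tested, 4 were higher, 4 lower and 7 did not pass (median 0.08, where 24.4% of all genes tested passed in either direction). Grb10, an adaptor that binds the insulin and IGF receptors and restrains them, had 59.9, 59.6 and 61.1 CPM in knockout libraries 4, 5 and 6, against 103, 95.7 and 98.5 CPM in control libraries 7, 10 and 16. Both groups were tight and far apart (log2 fold change -0.72, SE 0.06, adjusted p = 1.11e-04). The docking protein gene Dok4 also fell (-0.73, SE 0.12), while the docking protein gene Gab2 (0.59, SE 0.11) and Grb2 (0.26, SE 0.06), which links receptors to Ras, rose. The call of Grb2 ended without control library 7 (0.24, adjusted p = 0.0628). With acinar markers as a covariate Dok4, Gab2 and Grb2 did not pass (adjusted p = 0.0537, 0.125 and 0.126).

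Downstream, 3 of 22 genes of the PI3K, Akt and Foxo arm were higher, 5 were lower and 14 did not pass (median 0.05, beside the same 24.4% over all genes). Pik3ca, a catalytic subunit of PI3-kinase, averaged 118 ± 2.23 CPM in knockout islets and 90.4 ± 1.43 CPM in control islets (SD, n = 3 each) and rose (0.38, SE 0.06, adjusted p = 0.00215). Akt1, the kinase that PI3-kinase activates, fell to 112 ± 7.79 CPM in knockout islets, against 151 ± 4.04 CPM in control islets (SD, n = 3 each, -0.43, SE 0.07, adjusted p = 0.00338). Foxo6, a forkhead factor that Akt restrains, averaged 4.23 ± 0.172 CPM in knockout islets and 11.3 ± 2.11 CPM in control islets (SD, n = 3 each) and fell (-1.42, SE 0.18). Trib3, a pseudokinase described as an Akt inhibitor, fell too (-2.00, SE 0.31), to 1.97 ± 0.375 CPM in knockout islets, against 7.86 ± 2.93 CPM in control islets. With acinar markers as a covariate Trib3 was at -1.43 (adjusted p = 0.0896).

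Of 15 mTOR arm genes 2 were higher, 1 was lower and 12 did not pass (median 0.07), a share no higher than the 24.4% over all genes. Eif4ebp1, a repressor of translation that mTOR inactivates, had 5.34, 5.16 and 5.62 CPM in knockout libraries 4, 5 and 6, against 22.8, 18 and 13.8 CPM in control libraries 7, 10 and 16. It fell 3.4-fold by the fit, with no overlap (-1.76, SE 0.19, adjusted p = 3.45e-04). Deptor, an mTOR inhibitor, rose (0.77, SE 0.19, adjusted p = 0.0278), and did not pass without control library 7, 10 or 16 (0.67 to 0.86, adjusted p from 0.0665 to 0.079). Mtor itself rose by a small amount (0.21, SE 0.06, adjusted p = 0.0283), a call that was lost whichever of the 6 libraries was left out (adjusted p from 0.0517 to 0.0908), and with acinar markers as a covariate (adjusted p = 0.114). With endothelial markers as a covariate Insrr passed (-2.43, adjusted p = 0.00947), and the other genes named here from the ligand, protease, adaptor, PI3K and mTOR lists did not, with Pappa at 4.22 (adjusted p = 0.0765), Grb10 at -0.83 (adjusted p = 0.094) Eif4ebp1 at -2.55 (adjusted p = 0.0643), Ins1 at -2.57 (adjusted p = 0.134), Trib3 at -3.20 (adjusted p = 0.138) and Stc2 at -0.56 (adjusted p = 0.795). With stellate cell, fibroblast and pericyte markers as a covariate Igf1, Stc2, Grb2, Deptor and Mtor did not pass (adjusted p from 0.0811 to 0.224). The lists were not tested as sets.

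**Figure D3:**
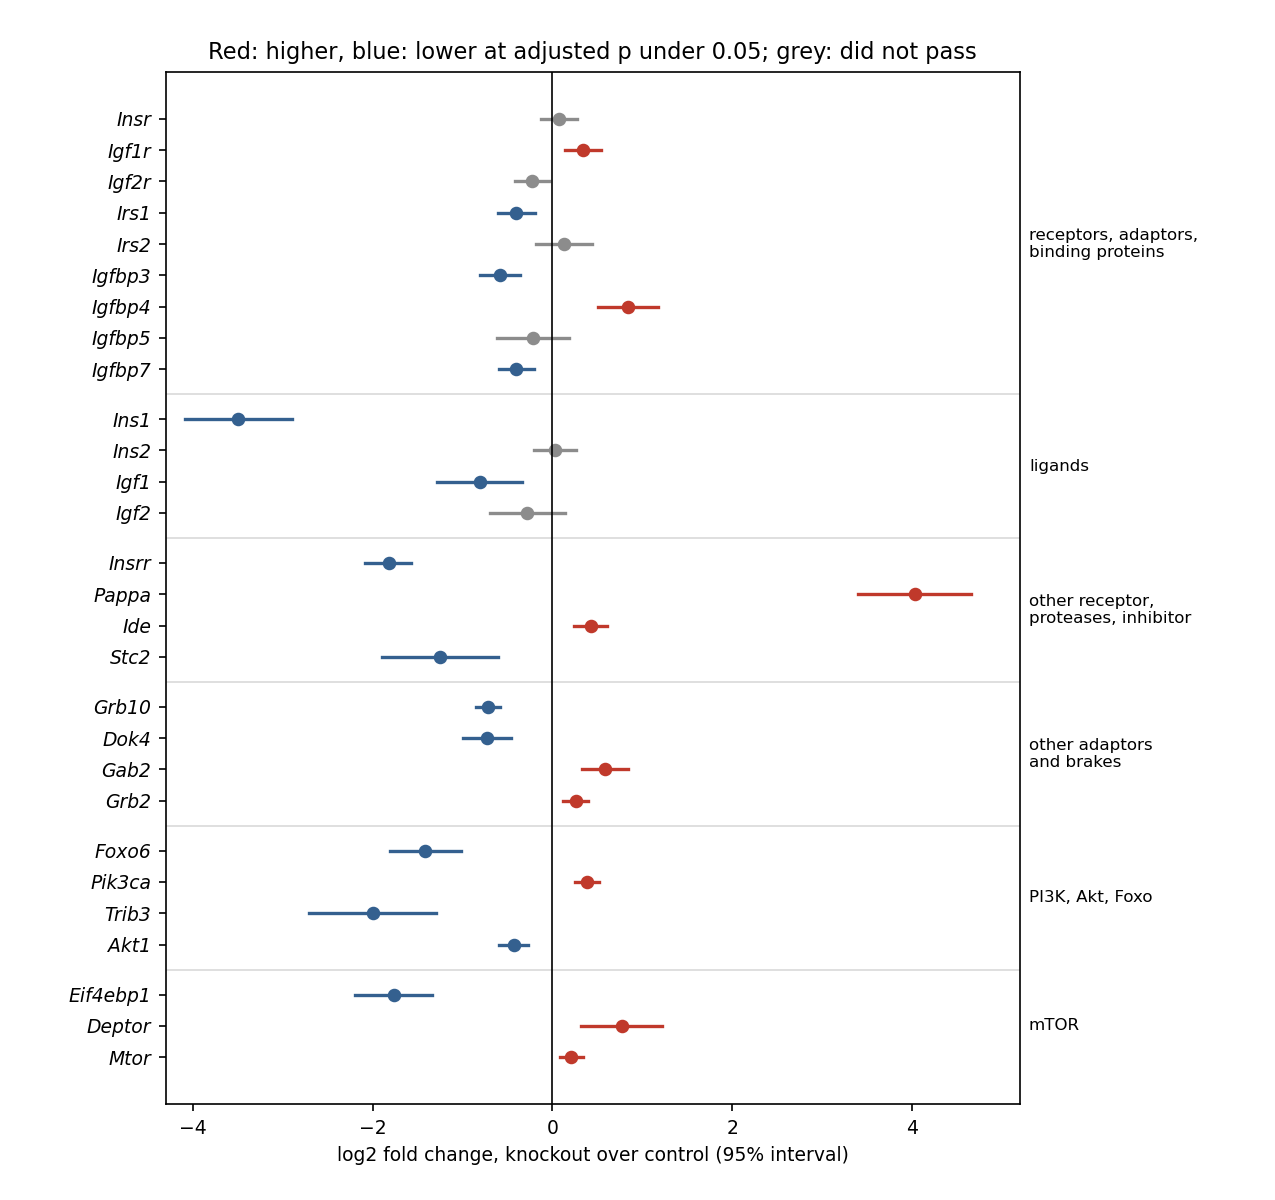
Log2 fold change, knockout over control, with its 95% interval (horizontal axis) for the 9 members tested and the named genes of the ligands, proteases, adaptors, PI3K and mTOR lists. The members lie between -0.58 and 0.84, while Pappa (4.03), Ins1 (-3.50), Trib3 (-2.00), Insrr (-1.82), Eif4ebp1 (-1.76), Foxo6 (-1.42) and Stc2 (-1.25) lie farthest outside that span.

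Genes whose pattern over the 6 libraries lay nearest to that of Igfbp4, by the Euclidean distance between log2 CPM values centred on each gene's own mean, were Tgfa (distance 0.23), Creld2 (0.26) and Stk32a (0.29), with log2 fold changes of 0.80, 0.74 and 0.87. Those nearest to Igfbp3 were Appl2 (distance 0.12), Smpd2 (0.13) and Dqx1 (0.14), with log2 fold changes of -0.54, -0.58 and -0.55. With 3 libraries per group such distances mainly reflect the size of the difference between the groups.

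In the authors' deposited table, 4 of the 10 members had an adjusted p under 0.05. The table gave Igfbp4 a fold of 1.8 (adjusted p = 0.00161), Igf1r 1.28 (adjusted p = 0.0269), Igfbp7 0.767 (adjusted p = 0.00707) and Igfbp3 0.676 (adjusted p = 3.54e-05). The authors' deposited table left Irs1 just outside, with a fold of 0.765 and an adjusted p of 0.0701. Thus Irs1 was the one member whose call differed between that table and the edgeR test.

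**Figure D4:**
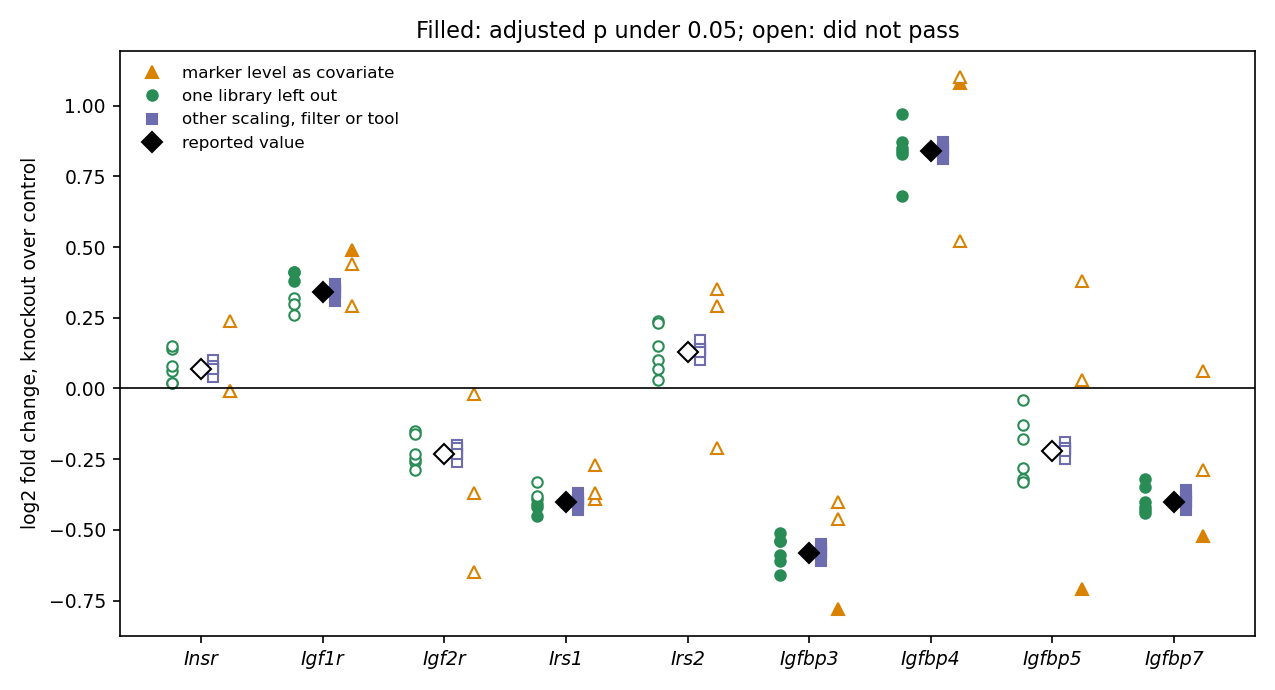
Log2 fold change, knockout over control (vertical axis), of the 9 members tested, as reported and under 16 alternatives: 6 with 1 library left out, 3 with a marker level as a covariate and 7 with another scaling, filter or tool. Filled symbols passed the threshold, and the covariate fits move the values most, while the 7 other settings stay close to the reported value.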

How the data were processed

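Islet RNA was sequenced as single-end reads of 100 bp, per the labels' protocols. Raw counts by gene symbol, as whole numbers, were deposited for every library by the authors. A deposited table of their group comparison holds a signal (group means of scaled counts), a fold ratio, its log2 value and p-values. Build mm9, DESeq, Cufflinks 2.0.2, TopHat2 2.1.0 and bcl2fastq 1.8.4 are named, with no role, per the submitters' processing notes. The sources used here do not give the counting program or its strand setting.

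The analysis used edgeR 4.0.16 in R 4.3.3: filterByExpr (minimum count 10, minimum total 15) kept 14770 of 23284 genes, TMM factors were 0.988 to 1.021, and the robust quasi-likelihood F test was adjusted by Benjamini-Hochberg over all genes tested, two-sided, at 0.05. Adjusted p-values outside the authors' table are from this model, or, where a left-out library, a covariate or no filter is named, from the same edgeR test refitted that way over all genes it tested. Standard errors and 95% intervals came from the same fit. DESeq2 1.42.0 and limma 3.58.1 served as alternatives. The script was tested on simulated counts. It recovered 38% of 100 genes changed 1.5-fold and 73.5% of 98 genes changed 2-fold, and 8 of its 118 calls were false. Far fewer genes were changed there than passed in the data, so these shares do not carry over directly. No library was a repeat of another, since pairs within a group gave a chi-square over degrees of freedom of 15.9 to 41.5. Rn45s, a ribosomal RNA precursor, took 0.325% to 3.58% of the counts in knockout and 0.396% to 1.69% in control libraries.

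The members and gene lists were chosen with earlier results of these data known. Named genes were the members, Neurod1, the ligands, in each other list the genes past the threshold with the lowest p (up to 4), and the 3 nearest patterns (mean of at least 5 CPM) of the members with the largest rise and fall. Igfbp1, Igfbpl1, Irs3 and Irs4 had too few counts to be tested. Promoters and exon lengths are of GRCm38 and served for no count.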

Additional observations from a re-analysis of the deposited data

How the results depend on the processing

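The members called and their directions were the same with other size factors, with insulin, acinar and ribosomal genes left out of the library sizes, with no filter on low counts, with DESeq2, limma-voom or non-robust edgeR. With 1 library left out, 1 to 2 members were higher and 2 to 3 lower, and 1153 to 1590 of all genes were higher and 1225 to 1433 lower. With acinar markers as a covariate 1 member was higher, as were 932 genes, and 799 genes were lower, while Igfbp5 took the place of Irs1 among the 3 lower members. With the endothelial level, edgeR called 0 members higher and 0 lower (2 of 9 had an unadjusted p under 0.05), 70 genes higher and 56 lower. With the stellate cell, fibroblast and pericyte level 1 member was higher and 0 lower, with 791 genes higher and 773 lower. Signs turned in values that had not passed: Irs2 (-0.21) and Ins2 (-0.02) with the acinar level, Insr (-0.01), Igfbp5 (0.38) and Igf2 (0.31) with the endothelial level, Insr (-0.01) and Igfbp5 (0.03) with the stromal level, and Ins2 without knockout library 5 (-0.02) or control library 10 (-0.01), over a range of -0.02 to 0.09 with 1 library left out. Igfbp7 (0.06) and Igf1 (0.04), both called lower, turned with the endothelial level. The cause was not tested. No paired analysis was possible because the groups share no replicate number. With 3 libraries a group, differences as small as those of Igf2r are at the limit of what the test can call.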
